A study of Mus musculus with 2 samples.

Results

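Single-cell RNA of a hepatic stellate cell (HSC) preparation was examined for 10 of 31054 listed features, the G1 arm of the cell cycle and the reporter of the mouse model. The set was chosen by function, with earlier results of these data known. Its inhibitors are Cdkn2a, Cdkn2b, Cdkn2c, Cdkn2d and Cdkn1b. The others are the kinases Cdk4 and Cdk6, the cyclin Ccnd1, the pocket protein Rb1 and the transgene tdTomato. All 10 were found in both libraries. The question was how these genes stood in the 3 cell classes of the preparation, and whether cells with a Cdkn2a transcript were the cells with a tdTomato transcript.

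The Cdkn2 genes encode the INK4 proteins, which bind CDK4 and CDK6 and keep them from pairing with D-type cyclins. Without that block the kinases phosphorylate RB1, E2F factors are released and the cell enters S phase. Cdkn2a is known as a marker of senescent cells and gives rise to a pair of unrelated proteins, p16Ink4a and ARF, from separate first exons. In the liver the HSC is the vitamin A storing pericyte that turns into a dividing, collagen-producing cell after injury.

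Each genotype, p16-LRTD and p16-Alb-LRTD, gave 1 library. Both came from male C57BL/6 mice that received CCl4, tamoxifen and diphtheria toxin over 4 weeks, and age and the number of mice behind each library were not given in the sources used here. Both genotypes carry p16-CreERT2, with the recombinase placed in the Cdkn2a locus, and an R26 allele designed to make tdTomato and the diphtheria toxin receptor only after Cre and Dre have both acted. Alb-DreERT2, in which the albumin promoter drives Dre in hepatocytes, was present in p16-Alb-LRTD and absent from p16-LRTD, the control genotype. The p16-Alb-LRTD mice were heterozygous, so the value of Cdkn2a is that of a locus with a modified copy.

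Of 11149 and 8806 barcodes, with medians of 16189 and 17569 UMIs (unique molecular identifiers, counted transcripts), 9004 and 7416 passed the filter. Stellate cells were those with at least 15 UMIs of Lrat, Ecm1, Hgf and Reln per 10000, endothelial cells those with at least 8 of Kdr, Stab2 and Ptprb, and Kupffer cells, the macrophages of the liver, those with at least 8 of Clec4f, Cd5l, Vsig4 and Csf1r. This gave 7852 stellate, 430 endothelial and 283 Kupffer cells in p16-LRTD and 6621, 283 and 178 in p16-Alb-LRTD. Cells that met more than 1 rule (245 and 221) or none (194 and 113) were set apart. Markers outside the rules bore the names out in both libraries. Dcn and Colec11 stood at 18429.8 and 3221.6 CPM (counts per 1000000 UMIs of the class sum) in stellate cells of p16-LRTD and at most 318.8 and 52.8 in the other classes, and Pecam1 and Adgre1 were highest in endothelial and Kupffer cells. The 2 libraries shared 95 barcode sequences. With 1 library per genotype there is no replicate check and no test, and every interval below is a 95% interval that covers counting error alone.

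Cdkn2a was lowest in the cells that made up most of the preparation. Stellate cells of p16-LRTD held 6.12 CPM (5.72 to 6.54), and stellate cells of p16-Alb-LRTD held 4.63 CPM (4.26 to 5.02). In the same order of libraries, endothelial cells held 23.1 CPM (19.4 to 27.2) and 13.8 CPM (10.4 to 18.0). Kupffer cells held 34.5 CPM (29.9 to 39.5) and 28.4 CPM (23.7 to 33.8). The order of the classes, with Kupffer cells highest and stellate cells lowest, was the same in both libraries. Kupffer cells held 5.63 times (4.82 to 6.57) the stellate level in p16-LRTD and 6.13 times (5.02 to 7.45) in p16-Alb-LRTD. Between Kupffer and endothelial cells the gap was smaller, 1.49-fold (1.20 to 1.86) and 2.06-fold (1.49 to 2.88).

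The same order appeared when each cell was thinned to 10000 UMIs. A Cdkn2a UMI was found in 5.32% of stellate cells of p16-LRTD (4.81 to 5.86, 389 of 7316 cells) and in 4.43% of those of p16-Alb-LRTD (3.93 to 4.96, 282 of 6372). The shares were 18.9% and 10.1% in endothelial cells and 23.1% and 18.6% in Kupffer cells. Without thinning the stellate shares were 9.05% and 7.61%. Free RNA can give a UMI to a cell that does not make the transcript, and the markers of the other classes give the level of foreign transcripts in stellate cells. The endothelial genes of the rule stood there at 0.0468% to 0.0716% of their endothelial level and the Kupffer genes of the rule at 0.0727% to 0.233% of their Kupffer level, values that the class rules themselves hold low. Outside the rules, Pecam1, Lyve1 and Clec4g stood at 0.159% to 2.33%, with Clec4g highest in both libraries, and Adgre1, Timd4 and Marco at 0.0726% to 0.267%. Cdkn2a in stellate cells stood at 0.265 and 0.335 times its endothelial level, and at 0.18 and 0.16 times its Kupffer level. What part free RNA had in the stellate values of Cdkn2a was not tested.

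Cdkn2a was also uneven among cells of 1 class. If all stellate cells of p16-LRTD had held it at the same level, 2.32 cells with 3 or more UMIs would have been seen, against 21 observed, and in p16-Alb-LRTD 0.907 against 8. The cells with the most Cdkn2a lay outside the stellate class. The highest, with 23 UMIs, was a Kupffer cell of p16-LRTD, and the next, with 17, was a cell of no class with 15.3 UMIs per 10000 of the fibroblast and mesothelial markers Dpt, Wt1, Upk3b, Msln and Pi16. In the cells of no class Cdkn2a stood at 32.9 CPM (27.8 to 38.7) for p16-LRTD, and the value for p16-Alb-LRTD was 25.5 CPM (19.8 to 32.4). Those among them with at least 5 UMIs per 10000 of these fibroblast and mesothelial markers, 99 and 30 cells, stood at 40.5 CPM (32.9 to 49.3) and 26.0 CPM (16.1 to 39.8), and the other cells of no class at 23.7 CPM (17.5 to 31.4) and 25.3 CPM (18.6 to 33.6). A pair of cells, with 17 and 13 UMIs, made up much of the higher value of p16-LRTD. Without the 2 cells richest in Cdkn2a in each library, those with the markers stood at 29.1 CPM (22.7 to 36.9) and 13.4 CPM (6.45 to 24.7), and their intervals overlapped those of the cells without the markers.

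Because the locus carries the recombinase, the sequences at its start sites are shown, with a window each of its relatives Cdkn2c and Cdkn2d, which were higher together with it in dividing stellate cells. Cdkn2a lies on the minus strand of chromosome 4 at chr4:89274471-89294653 (GRCm38), next to Cdkn2b at chr4:89306299-89311039. Cdkn2c lies further along the same chromosome, at chr4:109660876-109667189, and Cdkn2d lies at chr9:21288410-21291407. RefSeq (GRCm38.p6) gives Cdkn2a and Cdkn2c 2 start sites each, of which the upstream one is shown for Cdkn2c, and each window below runs from 250 bases before a start site to 50 after it, 5′ to 3′ on the strand of the gene. Capitals mark a match to the E2F motif, spelled TTTCCCGC, TTTCGCGC, TTTGCCGC or TTTGGCGC and searched on both strands.
Cdkn2a, upstream start (chr4:89294570-89294869): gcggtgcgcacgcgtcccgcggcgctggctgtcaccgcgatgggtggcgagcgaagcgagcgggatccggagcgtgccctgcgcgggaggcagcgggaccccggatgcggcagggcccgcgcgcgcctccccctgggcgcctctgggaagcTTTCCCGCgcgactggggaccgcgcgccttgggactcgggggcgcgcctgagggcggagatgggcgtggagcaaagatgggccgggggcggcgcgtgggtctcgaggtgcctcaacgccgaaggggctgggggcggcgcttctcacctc
Cdkn2a, downstream start (chr4:89282143-89282442): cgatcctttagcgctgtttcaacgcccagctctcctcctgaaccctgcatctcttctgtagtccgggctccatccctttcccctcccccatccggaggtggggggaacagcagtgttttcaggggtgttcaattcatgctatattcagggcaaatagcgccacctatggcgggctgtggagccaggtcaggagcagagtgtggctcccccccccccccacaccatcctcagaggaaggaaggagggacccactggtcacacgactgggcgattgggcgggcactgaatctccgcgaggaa
Cdkn2c (chr4:109666707-109667006): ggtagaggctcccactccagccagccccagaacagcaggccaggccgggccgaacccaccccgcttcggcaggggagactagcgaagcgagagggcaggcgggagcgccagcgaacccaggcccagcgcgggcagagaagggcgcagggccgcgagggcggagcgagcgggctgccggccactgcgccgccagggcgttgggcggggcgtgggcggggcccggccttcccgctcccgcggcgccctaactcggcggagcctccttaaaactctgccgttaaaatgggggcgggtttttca
Cdkn2d (chr9:21291160-21291459): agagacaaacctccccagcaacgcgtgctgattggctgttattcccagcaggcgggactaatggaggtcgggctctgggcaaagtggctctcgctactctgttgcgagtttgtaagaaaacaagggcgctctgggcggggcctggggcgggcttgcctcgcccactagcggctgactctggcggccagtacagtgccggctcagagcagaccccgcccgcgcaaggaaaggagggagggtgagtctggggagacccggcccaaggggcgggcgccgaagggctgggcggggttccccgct
The upstream Cdkn2a window held the motif 99 bases before the start, and it was the only match in the 9 windows found for 7 of the members. Of all 32851 windows of this length in the table, 2.26% held a match. A match is a run of letters and says nothing about whether a factor binds there.

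Counting at the 3′ end of transcripts cannot separate p16Ink4a from ARF, since both share their last exons, so the 2 windows cannot be tied to either value. The gene stands for both products throughout.

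**Figure D1:**
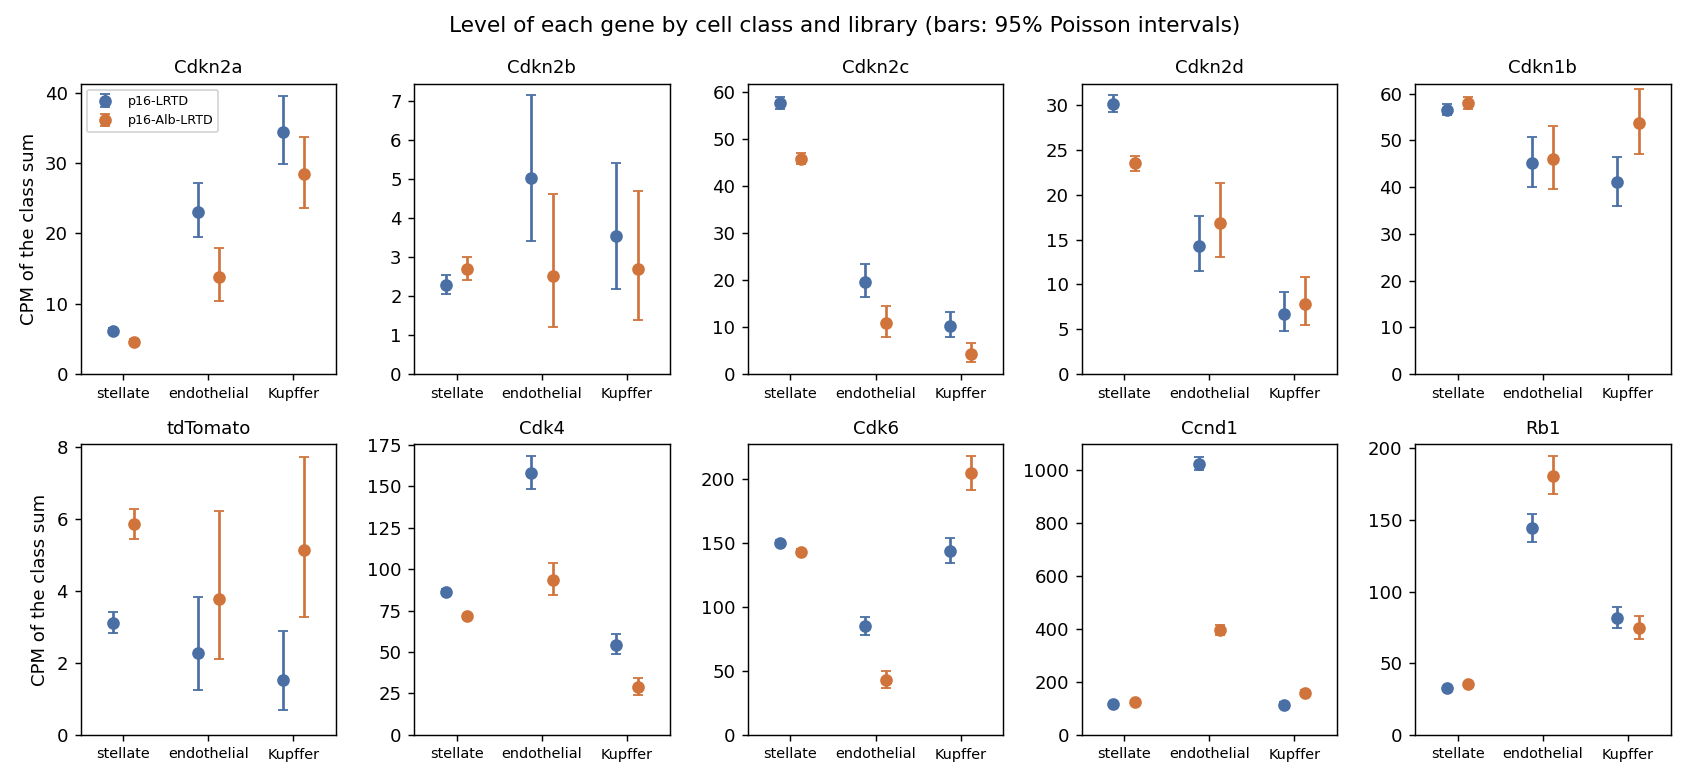
Level of each of the 10 genes in CPM of the class sum (vertical axis, from 0) in stellate, endothelial and Kupffer cells of p16-LRTD (blue) and p16-Alb-LRTD (orange), with bars for 95% Poisson intervals. Cdkn2a is highest in Kupffer cells, Cdkn2c and Cdkn2d in stellate cells and Ccnd1 and Rb1 in endothelial cells of both libraries, and Ccnd1 of endothelial cells stands at 1023.7 (blue) and 394.9 CPM (orange).

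The other INK4 genes did not share the pattern of Cdkn2a. Cdkn2c, which encodes p18Ink4c, stood at 57.7 CPM (56.5 to 59.0) and 45.9 CPM (44.7 to 47.1) in the stellate cells of the 2 libraries, p16-LRTD first. In endothelial cells it stood at 19.7 and 10.8 CPM and in Kupffer cells at 10.3 and 4.25 CPM, so that its order ran opposite to that of Cdkn2a in both libraries. Cdkn2d, which encodes p19Ink4d, had the same order as Cdkn2c. It stood at 30.2 and 23.5 CPM in stellate cells, 14.3 and 16.8 CPM in endothelial cells, and 6.73 and 7.82 CPM in Kupffer cells.

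Cdkn2b, the p15Ink4b gene next to Cdkn2a, was rare. It stood at 2.29 CPM (2.04 to 2.55) and 2.70 CPM (2.42 to 3.00) in stellate cells, and at 2.51 to 5.04 CPM in the 4 sums of the other classes, whose intervals overlapped each other. Endothelial cells held 2.20 times (1.47 to 3.19) the stellate level in p16-LRTD and 0.929 times (0.442 to 1.73) in p16-Alb-LRTD. Cells of no class with the fibroblast and mesothelial markers held more, 20.5 CPM (15.2 to 27.0) for p16-LRTD, and 23.5 CPM (14.2 to 36.7) for p16-Alb-LRTD. Cdkn2b and Cdkn2a thus both stood above their stellate levels in these few cells, while in Kupffer cells only Cdkn2a did so beyond counting error. Without the 2 cells richest in Cdkn2a in each library, however, their Cdkn2a intervals overlapped those of cells of no class without the markers. Cdkn1b, which encodes p27Kip1 of the other inhibitor family, varied little. It stood at 56.6 and 58.0 CPM in stellate cells, 45.2 and 45.9 CPM in endothelial cells and 41.0 and 53.7 CPM in Kupffer cells.

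Among the targets of the inhibitors, Cdk4 and Cdk6 went opposite ways across the classes. Cdk4 was highest in endothelial cells, with 157.8 CPM (148.0 to 168.0) and 93.6 CPM (84.4 to 103.6), against 86.4 and 71.5 CPM in stellate and 54.3 and 28.8 CPM in Kupffer cells. Cdk6 was lowest in endothelial cells, at 84.8 CPM (77.7 to 92.4) and 43.2 CPM (37.0 to 50.1). Its stellate and Kupffer levels were 150.0 and 143.6 CPM in p16-LRTD, where their intervals overlapped, and 143.3 and 204.3 CPM in p16-Alb-LRTD, where Kupffer cells were higher.

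Ccnd1 encodes cyclin D1, the partner of both kinases, and Rb1 their substrate. Ccnd1 was 8.82 times (8.57 to 9.08) as high in endothelial as in stellate cells of p16-LRTD and 3.14 times (2.98 to 3.30) as high in p16-Alb-LRTD. Stellate and Kupffer cells of p16-LRTD did not differ beyond counting error, at 116.1 and 113.5 CPM, while in p16-Alb-LRTD Kupffer cells held 1.24 times (1.15 to 1.34) the stellate level. Rb1 followed the order endothelial, Kupffer, stellate in both libraries, at 144.1, 81.6 and 32.5 CPM in p16-LRTD and 180.8, 74.7 and 35.8 CPM in p16-Alb-LRTD. Endothelial cells held 4.44 and 5.05 times the stellate level of Rb1.

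Next, the 2 libraries were compared within each class. A gene was counted as past the fold when its CPM differed by more than 1.5-fold, among genes with a mean of at least 5 CPM over the libraries. In stellate cells 8 of the 10 members reached that level, all but Cdkn2b and tdTomato, and none was past the fold. Of all 10179 genes at that level, 3.03% were higher in p16-Alb-LRTD by this measure and 3.05% were lower.

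Most genes differed between the libraries by more than counting error at this depth. By intervals that excluded equality, 5 of the 8 members at the level were lower in stellate cells of p16-Alb-LRTD and 2 were higher, beside 46.1% of all genes lower and 27.7% higher. Cdkn2a, one of the 5, reached the level only through p16-LRTD, and without cycling cells it fell under it. Cdkn2b and tdTomato, under the level, are given by value only, since no share of all genes in their range that were higher was worked out. The log2 ratio was -0.40 (-0.56 to -0.25) for Cdkn2a, -0.33 (-0.38 to -0.28) for Cdkn2c, -0.36 (-0.43 to -0.29) for Cdkn2d and -0.27 (-0.31 to -0.23) for Cdk4. The fifth, Cdk6, at -0.07 (-0.09 to -0.04), lay close to the median of all genes, which was -0.05. Ccnd1, Rb1 and the rare Cdkn2b were slightly higher, at 0.12 (0.09 to 0.15), 0.14 (0.08 to 0.20) and 0.24 (0.02 to 0.47), and Cdkn1b stood at 0.04 (-0.01 to 0.08). None of these differences can be set against a spread between mice.

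The number of dividing cells moved with these ratios. Stellate cells with at least 2 UMIs per 10000 of 10 mitotic genes, called cycling here, numbered 216 (2.75%) in p16-LRTD and 44 (0.665%) in p16-Alb-LRTD. They held 17.0% of the stellate Cdkn2a UMIs of p16-LRTD and 2.76% of those of p16-Alb-LRTD. Without them the log2 ratios were -0.22 for Cdkn2a, -0.14 for Cdkn2c, -0.16 for Cdkn2d and -0.24 for Cdk4. The part of dividing cells in the remaining differences was not tested.

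Within each library, Cdkn2a, Cdkn2c, Cdkn2d, Cdk4 and Rb1 were higher in cycling than in other stellate cells. Cdkn2a stood at 26.8 CPM (22.7 to 31.5) against 5.29 CPM (4.91 to 5.69) in p16-LRTD, a 5.07-fold difference (4.22 to 6.06). For p16-Alb-LRTD it was 19.4 CPM (11.1 to 31.5) against 4.53 CPM (4.16 to 4.92), 4.29-fold (2.43 to 7.02). The latter rests on 16 UMIs in 44 cells. Cdkn2c was 4.86-fold (4.58 to 5.15) and 2.32-fold (1.86 to 2.87) higher and Cdkn2d 5.32-fold (4.91 to 5.76) and 3.2-fold (2.44 to 4.12) higher. Cdk4 was 1.75-fold (1.63 to 1.88) and 2.02-fold (1.67 to 2.42) higher, and Rb1 1.42-fold (1.24 to 1.61) and 1.91-fold (1.44 to 2.49).

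None of the remaining members had intervals above equality in both libraries. Cdk6 was lower, at 0.708 times (0.651 to 0.768) and 0.769 times (0.619 to 0.945) the level of other cells. Ccnd1 stood at 1.04 times (0.963 to 1.13) and 1.18 times (0.977 to 1.41) that level, Cdkn2b at 1.62 times (0.978 to 2.55) and 1.81 times (0.489 to 4.67), and Cdkn1b at 1.24 times (1.12 to 1.38) and 0.92 times (0.668 to 1.24). tdTomato stood at 0.807 times (0.437 to 1.37) the level of other cells in p16-LRTD, below the interval of Cdkn2a, and at 1.67 times (0.718 to 3.31) in p16-Alb-LRTD, where its interval includes equality and also overlaps that of Cdkn2a. The class of cycling cells is a range of a score, and 332 and 327 stellate cells lay between 1 and 2 UMIs per 10000, just under the limit. Just above it, between 2 and 3, lay 41 of the 216 cycling cells of p16-LRTD and 25 of the 44 of p16-Alb-LRTD, so most of the smaller group sits near the limit. Cycling cells were deeper than other stellate cells in p16-LRTD, with a median of 25802 against 16898.5 UMIs, and shallower in p16-Alb-LRTD, with 15573 against 18144.

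**Figure D2:**
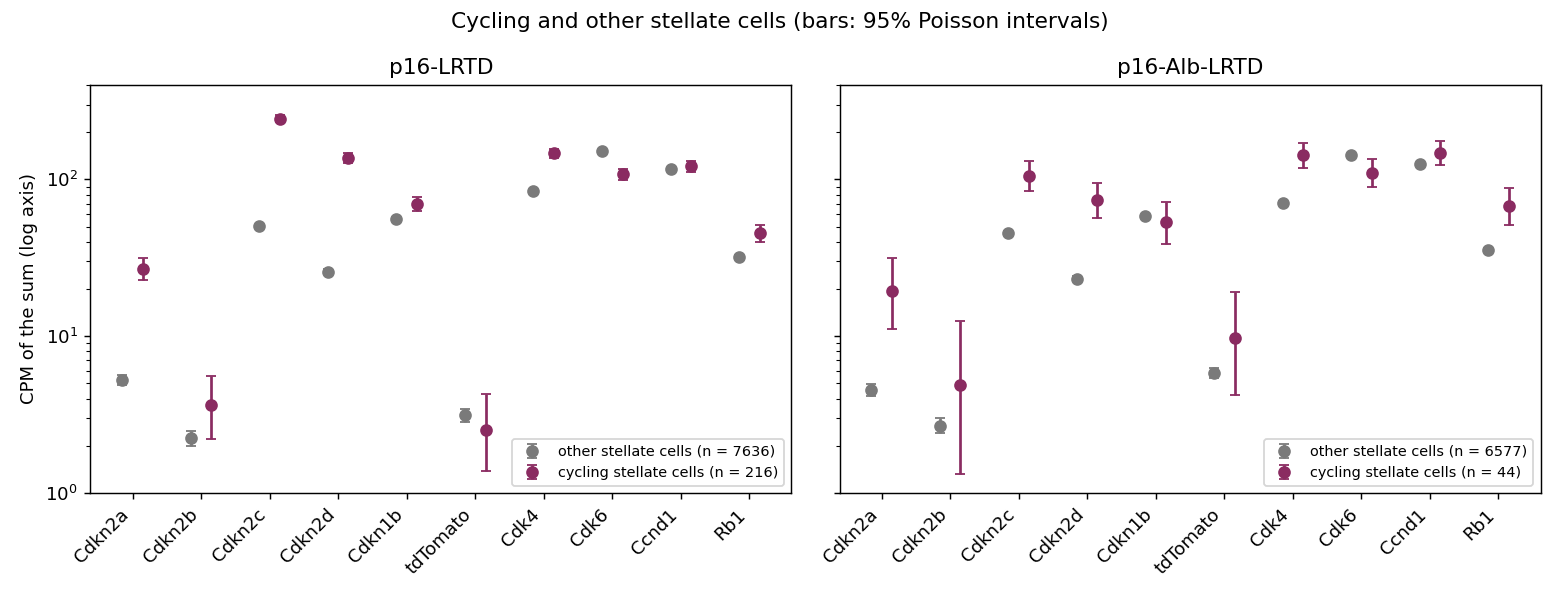
Level of each of the 10 genes in CPM (vertical log axis) in cycling (purple) and other (grey) stellate cells, 1 panel per library, with bars for 95% Poisson intervals. Cdkn2a, Cdkn2c, Cdkn2d, Cdk4 and Rb1 are higher and Cdk6 is lower in cycling cells of both libraries, while the tdTomato intervals of the 2 kinds of cells overlap.

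Collagen content was a further axis along which the members differed among stellate cells. Within each library the stellate cells were ranked by their share of Col1a1, Col1a2 and Col3a1 and cut into 4 equal groups. From the lowest to the highest group Cdkn2c went from 33.0 (31.0 to 35.2) to 79.1 CPM (76.5 to 81.9) in p16-LRTD, and from 33.7 (31.7 to 35.8) to 58.5 CPM (55.9 to 61.2) in p16-Alb-LRTD. Without cycling cells the highest group stood at 69.1 and 57.6 CPM. Cdk4 went from 66.7 to 106.7 and from 64.6 to 79.4 CPM, and Cdk6 in the other direction, from 169.4 to 129.8 and from 165.3 to 120.7 CPM. Cdk4 and Cdk6, both partners of cyclin D1, thus ran opposite to each other here as they did in cycling cells. Ccnd1 did not go the same way in both libraries. In p16-Alb-LRTD it went from 158.5 CPM in the lowest to 94.8 CPM in the highest group, and over the 4 groups of p16-LRTD it stood at 103.9, 125.0, 139.3 and 96.9 CPM.

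Cdkn2a varied less with collagen than Cdkn2c, from 4.82 CPM (4.07 to 5.68) to 6.61 CPM (5.85 to 7.43) in p16-LRTD, or from 4.8 to 5.51 CPM without cycling cells. For p16-Alb-LRTD it went from 4.14 CPM (3.45 to 4.92) to 4.95 CPM (4.21 to 5.80). tdTomato went from 2.51 CPM (1.98 to 3.15) to 3.85 CPM (3.28 to 4.48) and from 4.97 CPM (4.22 to 5.82) to 7.40 CPM (6.48 to 8.41). The groups are not alike in the libraries, since the median collagen share of the highest was 169.8 UMIs per 10000 in p16-LRTD and 47.5 in p16-Alb-LRTD.

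More members were past the fold in endothelial cells than in stellate cells. Of 8 members at the 5 CPM level, 5 were lower in p16-Alb-LRTD by more than 1.5-fold and none was higher, beside 13.5% of all genes lower and 6.44% higher. Of these 5, Ccnd1 had the largest ratio, with 1023.7 CPM (998.5 to 1049.2) in p16-LRTD against 394.9 CPM (375.6 to 414.9) in p16-Alb-LRTD, which is -1.37 (-1.46 to -1.29) as a log2 ratio. The cells as a whole were displaced: the median cell of p16-LRTD stood at 963.9 CPM, with quartiles of 525.8 and 1379.6, and that of p16-Alb-LRTD at 312.0, with quartiles of 109.5 and 559.7.

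Both kinases were lower as well. The log2 ratio of Cdk6 was -0.97 (-1.23 to -0.72) and that of Cdk4 -0.75 (-0.93 to -0.58). Of the inhibitors, Cdkn2c stood at -0.86 (-1.40 to -0.35) and Cdkn2a at -0.74 (-1.22 to -0.28), while Cdkn2d, at 0.23 (-0.25 to 0.71), and Cdkn1b, at 0.02 (-0.25 to 0.30), could not be told from equal. Rb1 was higher, at 0.33 (0.18 to 0.47). The median log2 ratio over all genes was -0.10 in this class, against which the ratios are to be read, and the split of all genes past the fold leaned on the scaling: 67.7% of them were lower by CPM, 55.0% by TMM and 52.3% by median-of-ratios scaling. The count of members past the fold was 5 under each scaling. Without cycling cells, which kept 410 and 282 endothelial cells, Cdkn2a stood at -0.56, within the fold, and the other 4 were past it, beside 12.7% of all genes lower and 6.64% higher. Among cells of 10000 to 30000 UMIs Cdkn2a stood at -0.58, just within the fold, and Cdkn2d at 0.60, past it upward, so that the count was again 5 with another member, beside 14.8% of all genes lower and 7.17% higher. With cells of mixed class added, Cdk6 stood at -0.23 and Cdkn2c at -0.37, leaving 3 members past the fold, all lower, beside 7.56% of all genes lower and 5.84% higher.

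Of the markers of other cell types, 8 stellate genes summed to 716.7 and 738.8 CPM in endothelial cells and 10 hepatocyte genes to 114.9 and 130 CPM. The sum of 4 cholangiocyte genes was 15.6 and 65.0 CPM, nearly all of it Spp1, with Krt19 at 0 in both libraries, and that of 5 lymphocyte genes was 8.61 and 0 CPM. Lyve1, a sinusoidal marker outside the rule, stood at 1111.1 and 668.8 CPM, and Stab2, of the rule, at 3576.5 and 3587.8 CPM. Whether the kinds of endothelial cells captured differed between the libraries, and what part these transcripts had in the ratios, was not tested.

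In Kupffer cells 2 of 8 members were lower in p16-Alb-LRTD by more than 1.5-fold and none was higher, beside 6.83% of all genes lower and 5.21% higher. These were Cdkn2c, at 10.3 CPM (7.85 to 13.2) and 4.25 CPM (2.56 to 6.63), and Cdk4, at 54.3 CPM (48.6 to 60.6) and 28.8 CPM (24.1 to 34.3). Cdkn2c passed the level of 5 CPM only through p16-LRTD, and it rests on 61 and 19 UMIs. The log2 ratio of Cdk4 was -0.91 (-1.22 to -0.61). Cdk6 and Ccnd1 went the other way, at 0.51 (0.37 to 0.64) and 0.46 (0.31 to 0.62), as did Cdkn1b, at 0.39 (0.12 to 0.65). Cdkn2a, at -0.28 (-0.61 to 0.05), could not be told from equal. Other markers moved with the class: Marco, a Kupffer gene outside the rule, stood at 507.6 and 1460.9 CPM, the 4 cholangiocyte genes, nearly all Spp1, at 313.0 and 141.5 CPM in sum, and the 8 stellate genes at 564.2 and 501.4 CPM, and their part in the ratios was not tested. By CPM 56.7% of all Kupffer genes past the fold were lower, and by median-of-ratios scaling 46.3%, with the same number of members past it.

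The Kupffer ratios depended on a group of cells. Leaving out cells with at least 20 UMIs per 10000 of the hepatocyte list, which kept 207 of 283 and 96 of 178 cells, placed 6 members past the fold, Cdkn2a (-1.23), Cdkn2c (-0.98) and Cdk4 (-0.70) downward and Cdkn1b (0.75), Ccnd1 (0.69) and Cdkn2d (0.69) upward. Among all genes of these cells 9.08% were lower and 6.97% higher past the fold. That list was led by Apoc1, an apolipoprotein gene, which made up 1317.4 of its 1357.4 CPM in Kupffer cells of p16-LRTD and 2047.3 of 2081.2 CPM in p16-Alb-LRTD. With Apoc1 taken off the list, 283 and 177 cells were kept, 2 members were past the fold, both lower beside 6.9% of all genes, and Cdkn2a stood at -0.28. The first setting therefore removed Apoc1-rich Kupffer cells, and Cdkn2a was lower in p16-Alb-LRTD by a wider margin among the Kupffer cells that remained. That setting kept Kupffer cells of p16-LRTD with 23 and 12 Cdkn2a UMIs, which had 14.9 and 19.2 UMIs per 10000 of the list. It left out Kupffer cells of p16-Alb-LRTD with 9, 8 and 8 Cdkn2a UMIs, which had 31.1, 39.9 and 26.2. A few cells thus have a part in the wider margin. Whether the Apoc1-rich cells are a kind of Kupffer cell of their own was not tested.

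**Figure D3:**
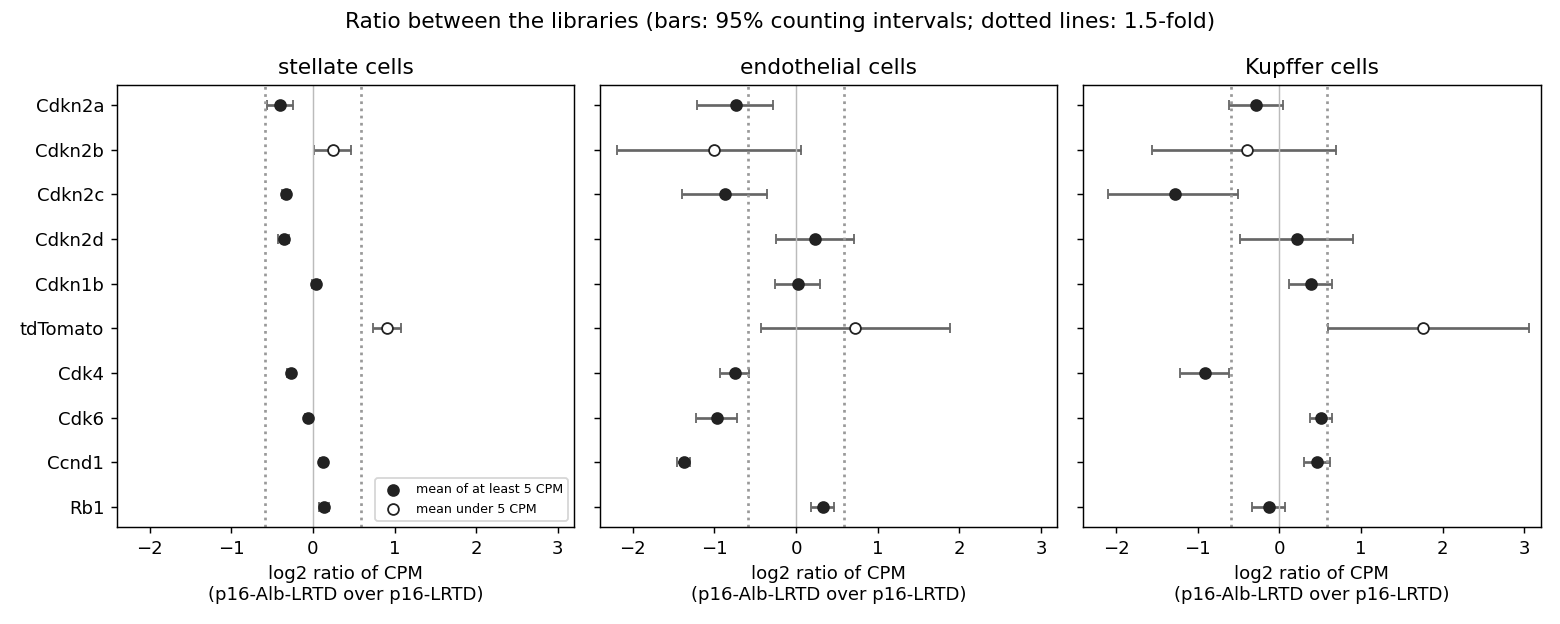
Log2 ratio of CPM, p16-Alb-LRTD over p16-LRTD (horizontal axis), of the 10 genes in stellate, endothelial and Kupffer cells, with bars for 95% counting intervals, dotted lines at 1.5-fold and open points for genes with a mean under 5 CPM. No filled point passes a line in stellate cells, 5 pass the lower line in endothelial cells (Cdkn2a, Cdkn2c, Cdk4, Cdk6 and Ccnd1) and 2 in Kupffer cells (Cdkn2c and Cdk4).

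The rest of the pathway was described from lists of related genes. Among 7 other inhibitors, cyclins and Cdk2, 5 reached 5 CPM in stellate cells, of which 3 were past the fold upward and none downward, beside the 3.03% and 3.05% of all genes given above, with a median log2 ratio of 0.97 beside -0.05 over all genes. Cdkn1a, the p21 gene and a target of p53, had the largest ratio, with 15.9 and 41.4 CPM in p16-LRTD and p16-Alb-LRTD, or 1.38 (1.31 to 1.45) on the log2 scale. Cdkn1c, the p57 gene, stood next at 16.4 and 33.6 CPM. The smallest ratios were those of Ccnd2, at 360.1 and 366.5 CPM, and Cdk2, at 5.23 and 5.41 CPM. The members past the fold in this list were thus Cdkn1a, Cdkn1c and Ccnd3, another D-type cyclin, at 103.9 and 204.0 CPM. Ccne1 and Ccne2, the cyclin E genes, lay under the level, at -0.36 (-0.63 to -0.10) and -0.33 (-0.59 to -0.07). In endothelial cells 1 of 5 was past it upward, beside 6.44% of all genes, and in Kupffer cells 3 of 4 were, beside 5.21%.

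Of 12 pocket proteins, E2F and DP factors, 8 reached the level in stellate cells, none of these was past the fold, and their median was -0.01. The extremes were Tfdp2, at 0.39 (0.35 to 0.42), and E2f3, at -0.39 (-0.48 to -0.30). The 4 under the level, E2f1, E2f2, E2f7 and E2f8, whose factors are known to act around S phase, were each lower in p16-Alb-LRTD by more than 1.5-fold with intervals below equality, at -1.18 (-1.57 to -0.80), -1.64 (-2.20 to -1.10), -0.90 (-1.21 to -0.60) and -2.12 (-2.74 to -1.55). Of 12 S-phase genes that E2F factors control, 7 reached the level and none was past the fold, with a median of -0.20. Tyms, for thymidylate synthase, stood lowest at -0.57 (-0.70 to -0.45) and Pcna, the replication clamp, highest at 0.05 (-0.01 to 0.11). The 5 under the level were again all lower by more than 1.5-fold with intervals below equality, from Mcm5, at -0.88 (-1.12 to -0.65), to Ccna2, the cyclin A2 gene, at -3.18 (-3.49 to -2.88) on 1001 and 97 UMIs. Of all 3604 genes with a mean of 0.5 to 5 CPM in stellate cells, the range in which these 9 lie, 17% were lower by both measures. E2f2 and E2f8, at 0.296 and 0.240 CPM in p16-Alb-LRTD, reached that range only through p16-LRTD and so had to differ. Ccna2, at 7.02 CPM in p16-LRTD, fell in it only through p16-Alb-LRTD and had to differ too. The number of cycling cells, 216 and 44, moved with the values of these 9 genes as well, and its part in them was not tested. In endothelial cells 6 of 8 S-phase genes at the level were lower by more than 1.5-fold, beside 13.5% of all genes, with a median of -0.81 beside -0.10, and in Kupffer cells 4 of 10 were, beside 6.83%, with a median of -0.38 beside -0.06. In each of these counts 1 gene, Tyms in endothelial and Rrm2 in Kupffer cells, reached the level only through p16-LRTD and so had to differ. The pocket proteins, E2F and DP factors had 1 of 9 lower past the fold in endothelial cells and none of 8 in Kupffer cells, beside the same shares.

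The 10 mitotic genes, which also define the cycling cells, had 8 members at the level in stellate cells and all 8 were lower in p16-Alb-LRTD by more than 1.5-fold, with a median of -2.90. All but Cdk1, at 30.8 and 16.6 CPM, were under 5 CPM in p16-Alb-LRTD, such as Ube2c at 22.3 and 1.10 CPM, so that 7 of the 8 reached the level only through p16-LRTD and had to differ. In endothelial cells 3 of 3 at the level were lower, 2 of them under 5 CPM in p16-Alb-LRTD, and in Kupffer cells 4 of 6, with 2 of the 6 under it, beside 13.5% and 6.83% of all genes lower. Of 12 known regulators of the Cdkn2a locus, 11 reached it and only Id1, a repressor of p16Ink4a transcription, was past the fold, at 31.8 and 61.2 CPM, a ratio of 1.92 (1.85 to 1.99). Suz12, part of the Polycomb complex that keeps the locus silent, had the ratio nearest to equality, 1.01 (0.975 to 1.04). In endothelial cells 1 of 11 was higher past the fold and in Kupffer cells none of 10, beside 6.44% and 5.21% of all genes. Of the ARF axis, Mdm2 stood at 0.22 (0.17 to 0.27) and Trp53 at 0.06 (0.03 to 0.10) in stellate cells, and of this pair 1 was lower past the fold in endothelial cells and none in Kupffer cells, beside 13.5% and 6.83% of all genes.

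tdTomato, the reporter, is designed to be made only where both recombinases have acted. p16-LRTD lacks Dre, so its tdTomato UMIs, 589 over all barcodes, are the level found without it, and their source was not tested. Stellate cells of p16-LRTD held 445 tdTomato UMIs, or 3.12 CPM (2.84 to 3.42), and those of p16-Alb-LRTD held 731, or 5.84 CPM (5.43 to 6.28). Endothelial cells held 14 and 15 UMIs, or 2.27 CPM (1.24 to 3.82) and 3.77 CPM (2.11 to 6.21). Kupffer cells held 9 and 23 UMIs, or 1.51 CPM (0.692 to 2.87) and 5.14 CPM (3.26 to 7.71). The p16-Alb-LRTD value was the higher of the pair in each class, and the difference was beyond counting error in stellate cells, where the log2 ratio was 0.91 (0.73 to 1.08), and in Kupffer cells, where it was 1.76 (0.60 to 3.06). The mean lay under 5 CPM in each class, so tdTomato was not among the genes counted above.

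Within p16-Alb-LRTD the classes could not be told apart by the reporter. Stellate cells held 1.55 times (0.934 to 2.79) the endothelial level and 1.14 times (0.751 to 1.80) the Kupffer level. After thinning to 10000 UMIs the share of cells with a tdTomato UMI was 5.43% (4.89 to 6.01) in stellate, 3.52% (1.43 to 7.11) in endothelial and 4.79% (2.09 to 9.22) in Kupffer cells of p16-Alb-LRTD, and 3.16% (2.77 to 3.58), 1.79% (0.582 to 4.12) and 1.18% (0.243 to 3.40) in p16-LRTD. Without thinning the stellate share was 9.58% in p16-Alb-LRTD and 4.93% in p16-LRTD. Within p16-LRTD, by CPM, stellate cells held 2.06 times (1.08 to 4.54) the Kupffer level, and the Kupffer value rests on 9 UMIs. Neither endothelial nor Kupffer cells use the albumin promoter, and the stellate share lay within their intervals in both libraries, so no reporter expression is read from these shares. The UMIs were not spread evenly: at 1 even level 13.7 stellate cells of p16-LRTD with 2 or more would have been seen, against 50 observed, and in p16-Alb-LRTD 40.7 against 81. What part free RNA had in these values was not tested.

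Barcodes rich in hepatocyte transcripts stood apart. The hepatocyte list held 10 genes, among them Alb, Apoa1 and Ttr, and all barcodes, including those outside the filter, were grouped by it. At 100 or more UMIs of the list per 10000 there were 101 barcodes in p16-LRTD, with 18 tdTomato UMIs or 9.24 CPM (5.47 to 14.6). There were 110 in p16-Alb-LRTD, with 185 UMIs or 255.6 CPM (220.1 to 295.2), 27.7 times as much (17.0 to 47.7). Alb itself stood at 20237.9 CPM in the former and 5856.3 CPM in the latter, or 8211.5 CPM without the 3 barcodes richest in tdTomato, which had 427063 UMIs in total between them. The whole list stood at 62301.7 and 35436 CPM, or 48632.3 CPM without those 3. In the 3 groups below that limit the ratio was 1.91 (1.70 to 2.15), 2.06 (1.56 to 2.73) and 2.16 (1.11 to 4.45). The widest ratio was therefore that of the hepatocyte-rich barcodes, and a ratio near 2 was found in each of the other groups.

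The reporter of these barcodes was concentrated in few of them. Only 18 of the 110 barcodes held a tdTomato UMI, and the same 3, with 78, 42 and 29 UMIs, held 149 of the 1122 tdTomato UMIs of the library, or 13.3%. Without these 3 the group stood at 121.3 CPM (85.0 to 167.9), and the ratio to p16-LRTD was 13.1 (7.27 to 24.6). The 3 barcodes lay outside the filter, with 208866, 100350 and 117847 UMIs in total, and none of them held a Cdkn2a UMI. Barcodes of that size can hold more than 1 cell, and 1 of them also met the stellate rule. In all 110, 4 Cdkn2a UMIs were counted, 5.53 CPM (1.51 to 14.2), against 7.18 CPM (3.93 to 12.1) in the 101 of p16-LRTD. The 4 of p16-Alb-LRTD all lay outside the 3 barcodes richest in tdTomato. Cdkn2a was thus not found where tdTomato was highest, and the group value pools unlike barcodes.

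**Figure D4:**
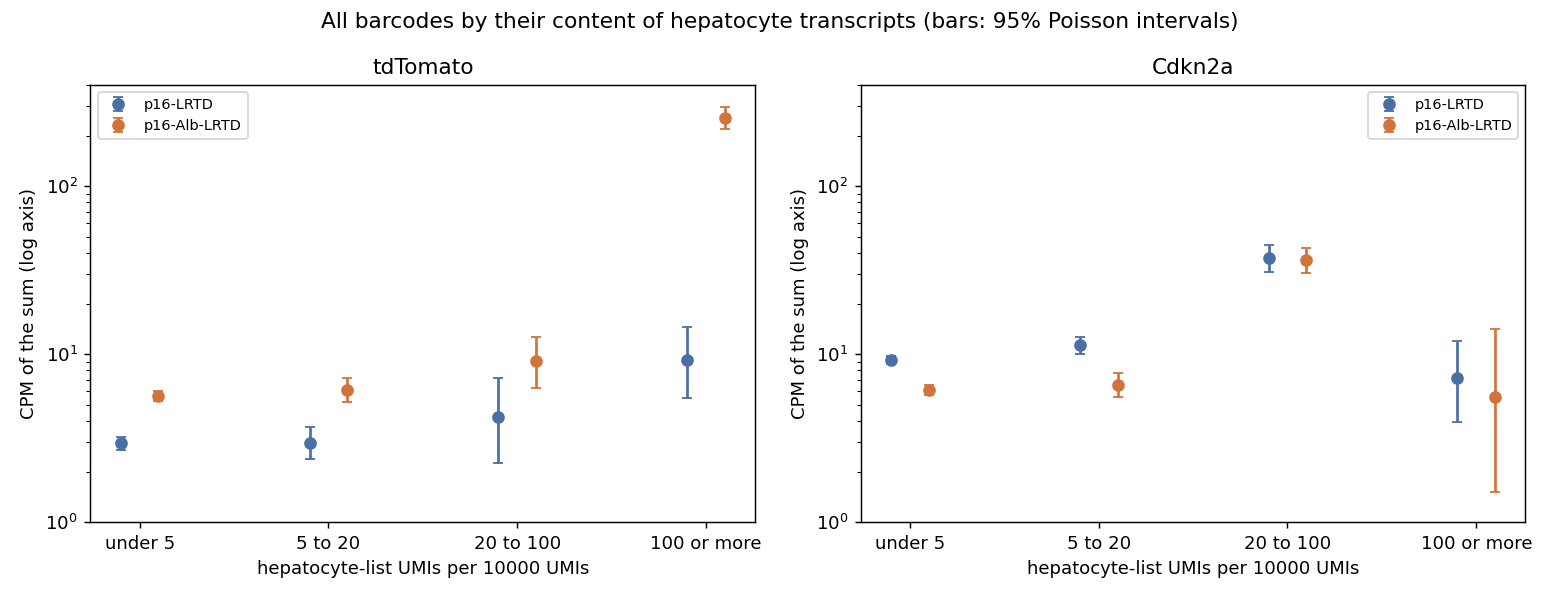
Level of tdTomato (left) and Cdkn2a (right) in CPM (vertical log axis) over all barcodes, grouped by UMIs of 10 hepatocyte genes per 10000 UMIs (horizontal axis), for p16-LRTD (blue) and p16-Alb-LRTD (orange), with bars for 95% Poisson intervals. tdTomato reaches 255.6 CPM in the last group of p16-Alb-LRTD, while Cdkn2a peaks in the group from 20 to 100, in which 225 of 327 and 216 of 301 barcodes met the Kupffer rule.

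Lastly, co-detection of Cdkn2a and tdTomato in the same cell was measured at matched depth. Of 7316 stellate cells of p16-LRTD thinned to 10000 UMIs, 389 held Cdkn2a, 231 held tdTomato and 4 held both, against 12.3 from the product of the shares, a ratio of 0.326 (0.0887 to 0.834). Of 6372 cells of p16-Alb-LRTD, 282 held Cdkn2a, 346 held tdTomato and 19 held both, against 15.3, a ratio of 1.24 (0.747 to 1.94). A Cdkn2a UMI was found in 1.73% (0.474 to 4.37) of tdTomato-positive and 5.43% (4.92 to 5.99) of other stellate cells of p16-LRTD, and in 5.49% (3.34 to 8.44) and 4.36% (3.86 to 4.91) of those of p16-Alb-LRTD.

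The low ratio of p16-LRTD depended on the draw of UMIs. Computed over all possible draws it was 0.759 in p16-LRTD and 1.01 in p16-Alb-LRTD. Without thinning, with the expected number summed over 10 bins of cells of like depth, it was 0.905 and 1.01. The observed numbers were then 36 cells with both in p16-LRTD and 53 in p16-Alb-LRTD. No excess of double-positive stellate cells was detectable in either library, and the interval in p16-Alb-LRTD leaves room for a ratio of up to 1.94. That genotype carries all parts of the system, but its Dre is driven by the albumin promoter in hepatocytes. By design the reporter is not made in stellate cells of either genotype. Co-detection there therefore cannot show whether cells with Cdkn2a transcripts are those that would make the reporter.

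**Figure D5:**
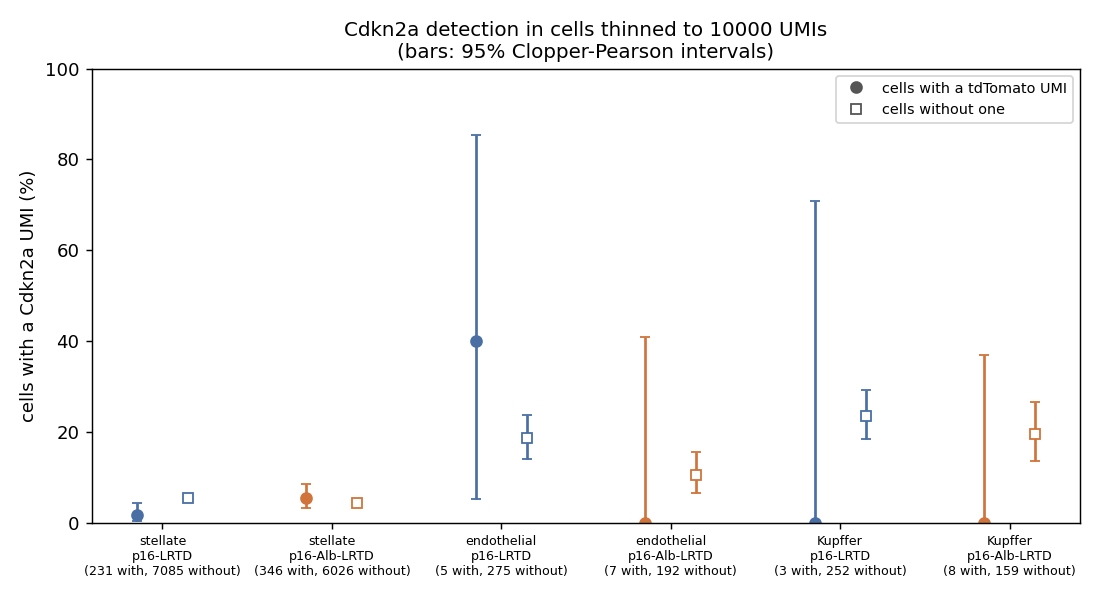
Percent of cells with a Cdkn2a UMI (vertical axis) among cells with (filled circles) and without (open squares) a tdTomato UMI, after thinning each cell to 10000 UMIs, by class and library (p16-LRTD blue, p16-Alb-LRTD orange), with bars for 95% Clopper-Pearson intervals and cell numbers under the axis. Stellate cells show 1.73% against 5.43% in p16-LRTD and 5.49% against 4.36% in p16-Alb-LRTD, and the endothelial and Kupffer points with tdTomato rest on 3 to 8 cells.

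In the small classes co-detection could hardly be measured. Thinned endothelial cells held 2 double-positive cells of 280 in p16-LRTD, with 0.946 from the product of the shares, and 0 of 199 in p16-Alb-LRTD, with 0.704. Thinned Kupffer cells held 0 of 255, with 0.694, and 0 of 167, with 1.49. Taken as 3 cells of the total, a count of 0 allows up to 1.51%, 1.18% and 1.80% of cells with a UMI of both at this depth.

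As a measure of what other pairs give, Cdkn2a was set against each of the other 8 members in the same thinned stellate cells. Most of the 16 ratios had intervals that included 1. The exceptions were Cdkn2d in p16-LRTD, at 1.25 (1.03 to 1.49), and Cdkn2c in p16-Alb-LRTD, at 0.772 (0.610 to 0.964), and neither held in the other library, where Cdkn2d stood at 1.13 (0.873 to 1.44) and Cdkn2c at 1.08 (0.923 to 1.27). Neither exception held under every setting. Cdkn2d in p16-LRTD stood at 1.07 (0.855 to 1.33) without cycling cells and at 1.24 (1.11 to 1.38) without thinning. Cdkn2c in p16-Alb-LRTD stood at 0.984 (0.870 to 1.11) without thinning and at 0.760 (0.598 to 0.953) without cycling cells. Without thinning, depth is not matched.

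The genes whose level was most like that of Cdkn2a over the 6 sums of class and library, by Pearson correlation of log2(CPM + 1) among 10734 genes, were Dok1 (0.997), Lcorl (0.996) and Chn2 (0.995). Those most like tdTomato were Usp18 (0.992), Gbp7 (0.980) and Oasl2 (0.976). The 6 points share libraries in groups of 3, and these values only describe them. Usp18, for instance, stood at 23.7, 21.3 and 14.8 CPM in stellate, endothelial and Kupffer cells of p16-LRTD and at 49.0, 30.9 and 41.6 CPM in those of p16-Alb-LRTD.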

How the data were processed

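HSC preparations of 2 genotypes were profiled with 10x 3' v3.1 chemistry, 1 library each. The deposited files hold raw counts of UMIs for every gene in every barcode, which the authors obtained from CellRanger 7.0.1 on mm10. Whether intronic reads were counted, and which part of the tdTomato transgene was in the reference, is not given in the sources used here. All further values were computed here. The limits of the study's own filter were applied: 2000 to 7000 genes, at most 50000 UMIs and at most 5% mitochondrial UMIs, which left out 2145 and 1390 barcodes. Its later removal of low-gene clusters was not repeated. No doublet caller was run, and doublets were limited by the upper bounds and by setting aside cells of mixed class.

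Class sums of UMIs were scaled to CPM. With 1 library per group there was no test. Poisson intervals for CPM, Clopper-Pearson intervals for shares and exact conditional intervals for ratios, each at 95%, cover counting error only. For co-detection, 10000 UMIs were drawn from every stellate cell that had them, 7316 and 6372 cells. TMM and median-of-ratios factors came from edgeR 4.0.16 in R 4.3.3, and the rest ran in Python 3.11.15 with SciPy 1.17.1. The ratio intervals were tried on counts drawn from the Poisson model they assume, and the co-detection ratio on independent draws at 1 depth. Such draws lack the uneven spread of Cdkn2a and tdTomato between cells given above, so they do not show how the measures fare on it.

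The members and the gene lists were chosen with earlier results of these data known. Every member is described in each class. Of each list, the genes with the largest and the smallest ratio among those with 5 CPM or more in stellate cells could be named, and Cdkn1c, Ccnd3, Cdk2 and list genes under that level (Ccne1, Ccne2, E2f1, E2f2, E2f7, E2f8, Mcm5, Ccna2 and Rrm2) were named besides, after their values were seen. Gene positions are from GENCODE vM21 and promoter windows from RefSeq. The alternatives tried were other cell filters, class limits, scalings, minimum levels, folds and thinning depths.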

Additional observations from a re-analysis of the deposited data

Results flagged for a closer look

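Cdk6 and Ccnd1 differed between the libraries in opposite directions in different cell classes. For Cdk6 the log2 ratio of p16-Alb-LRTD over p16-LRTD was 0.51 in Kupffer cells, -0.07 in stellate cells and -0.97 in endothelial cells. For Ccnd1 it was 0.12 in stellate cells, 0.46 in Kupffer cells and -1.37 in endothelial cells. The difference between the classes was not tested, since each class has 1 library per genotype. The stellate value of Cdk6 lay near the median of all genes (-0.05), and with mixed cells added the endothelial value of Cdk6 was -0.23. The Kupffer value of Ccnd1 ranged from 0.18 to 0.69 over the alternatives.

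tdTomato stood at 280.3 CPM in the 106 barcodes of p16-Alb-LRTD that were rich in hepatocyte transcripts (at least 100 UMIs per 10000) and lay outside the filter, data that the comparisons between classes do not use. The 95 such barcodes of p16-LRTD, the control, stood at 9.95 CPM.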

How the results depend on the processing

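No paired analysis was possible because the design holds 1 library of each genotype. None of the 360 log2 ratios recomputed for the 30 pairs of member and class turned its direction where the interval excluded 0, and 333 stayed inside the counting interval. In stellate cells the Cdkn2a ratio moved from -0.40 to -0.22 without cycling cells and to -0.24 among cells of 10000 to 30000 UMIs. The count of members past 1.5-fold was 0 in stellate cells and became 1, tdTomato, with a minimum of 1 CPM or with no minimum beyond 1 count in each library. With a fold of 2 the counts in endothelial and Kupffer cells were 1 and 1, in place of 5 and 2. The co-detection ratio was 0.326 in p16-LRTD and 0.905 without thinning over 10 depth bins, and 1.24 in p16-Alb-LRTD and 0.730 when thinned to 5000 UMIs. The alternatives for endothelial and Kupffer cells, those for stellate members other than Cdkn2a and tdTomato, the list without Apoc1, and the values without the 2 cells richest in Cdkn2a or the 3 barcodes richest in tdTomato were added after seeing the data. Depth limits the rare genes: endothelial and Kupffer tdTomato rests on 9 to 23 UMIs. The spread between mice, library preparation and genotype cannot be told apart.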
